A study of Mus musculus with 7 samples.

Results

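Chemokines are small secreted proteins that direct the migration of leukocytes. The 10 chemokine genes described here, Cxcl1, Cxcl2, Cxcl3, Cxcl5, Cxcl10, Cxcl12, Cxcl16, Cxcl17, Ccl20 and Ccl28, were taken by name from the 53379 gene IDs counted in 7 RNA-seq libraries of mouse endometrial epithelium, the cell layer that lines the lumen and glands of the uterus. All 10 were among the 14610 genes that passed the filter on low counts. The mutant group was 4 individual CD-1 mice aged 120 days with the genotype LtfCre 0/+; Brg1 fl/fl, in which Cre recombinase is driven by Ltf (lactoferrin) and both Brg1 alleles are floxed. Brg1, encoded by Smarca4, is the ATPase that powers the chromatin remodelling complex SWI/SNF. The control group was 3 libraries, each from a pool of wild-type mice of the same strain and re-used from an earlier series, with no age stated in the labels. In both groups cells of dissociated uteri were selected magnetically with an antibody to EpCAM. Because no library set holds both genotypes, the effect of genotype cannot be told apart from that of library set or of pooling.

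Reads in genes numbered 12436971 to 13364080 in mutants and 21372036 to 25862245 in controls. Values are given as CPM, the reads of a gene per 1000000 gene reads on library sizes scaled by the trimmed mean of M-values (TMM), and 3 reads, taken as the floor, corresponded to 0.182 to 0.234 CPM in the mutants and 0.136 to 0.158 CPM in the controls. Smarca4 ranged from 56.6 to 105 CPM across the mutants and from 245 to 279 CPM across the controls, and its log2 fold change was -1.64 ± 0.23 (SE, edgeR adjusted p = 0.00967). Epcam, the sort antigen, ranged from 572 to 742 CPM in the mutants and from 821 to 964 CPM in the controls (edgeR adjusted p = 0.206). Ltf, whose regulatory sequence drives the Cre, was at 82.5, 2019, 1143 and 1543 CPM in the mutants and 3027, 2934 and 3679 CPM in the controls (edgeR adjusted p = 0.274). Mutant replicate 1 had the lowest value of all mutants for 7 of the 10 chemokines and for Ltf, so each chemokine's fold change is also given without it where that changes the call.

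Cxcl1, Cxcl2, Cxcl3 and Cxcl5 carry the ELR motif (glutamate, leucine, arginine) ahead of the CXC cysteines and attract neutrophils through the receptor Cxcr2. Ccl20 attracts Ccr6-bearing cells, Ccl28 attracts plasma cells and T cells to mucosae through Ccr10, and Cxcl17 is a chemokine of mucosal epithelia. Cxcl16 is made as a membrane-anchored protein that binds Cxcr6, Cxcl10 is an interferon-induced ligand of Cxcr3, and Cxcl12 is a ligand of Cxcr4 that is best known from stromal cells. Epithelia release ELR chemokines and Ccl20 after stimulation by interleukin-1, tumour necrosis factor, interleukin-17 or bacterial products, and many of these genes have a binding site for the transcription factor NF-kB close to the start of transcription.

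The stretch upstream of the start is printed for Cxcl1, Cxcl2, Cxcl3, Ccl20 and Cxcl10 because these 5 of the 7 members found in the promoter table held a match to the kappaB consensus of NF-kB. Sequences are from RefSeq on GRCm38.p6, run 5′ to 3′ on the gene's strand from position -120 to position -31 relative to the RefSeq start, and capitals mark the bases of the match.
Cxcl1, chr5:90891125-90891214, plus strand: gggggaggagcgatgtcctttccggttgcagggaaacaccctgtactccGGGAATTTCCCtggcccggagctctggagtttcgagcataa
Cxcl2, chr5:90903779-90903868, plus strand: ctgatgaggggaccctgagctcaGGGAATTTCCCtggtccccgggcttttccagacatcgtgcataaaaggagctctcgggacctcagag
Cxcl3, chr5:90785981-90786070, plus strand: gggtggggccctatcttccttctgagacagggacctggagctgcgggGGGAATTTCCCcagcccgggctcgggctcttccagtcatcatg
Ccl20, chr1:83116646-83116735, plus strand: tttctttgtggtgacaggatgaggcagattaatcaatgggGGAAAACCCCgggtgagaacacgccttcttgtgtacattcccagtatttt
Cxcl10, chr5:92348920-92349009, minus strand: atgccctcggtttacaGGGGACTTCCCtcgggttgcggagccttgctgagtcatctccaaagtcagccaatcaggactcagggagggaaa

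Cxcl1, Cxcl2 and Cxcl3 held the identical letters GGGAATTTCC, starting at positions -71, -97 and -73. This word, searched on both strands and itself a case of the kappaB consensus, occurred in 29 of 32851 promoters of 300 bases (0.0883%), and the consensus in 2779 (8.46%). Among the 10716 tested genes with a promoter in the table, 1328 held the consensus, of which 85 were lower in mutants (6.40%) and 69 higher at an edgeR adjusted p under 0.05. Of the 14 tested genes with GGGAATTTCC, 3 were lower and 0 higher, against 6.18% lower and 5.37% higher among all tested genes. The 14 include Cxcl1, Cxcl2 and Cxcl3 themselves and the 3 include Cxcl2, so this count is not independent of the members. Cxcl10 also held 2 GAAA words 2 bases apart, the core of an interferon-stimulated response element (3.44% of promoters) and the AP-1 word TGANTCA (7.81% of promoters, starting at -74). A match of letters is a description and shows no binding. Cxcl5, Cxcl16 and Cxcl17 were not in the promoter table.

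Per kilobase of exon, which allows levels of different genes to be compared, Cxcl1 and Cxcl2 were the most abundant of the 10 chemokine transcripts in control epithelium, at 318 ± 49.99 and 297 ± 30.4 CPM per kb (mean ± SD, n = 3). Cxcl17 followed at 236 ± 109, Cxcl5 at 111 ± 50.6 and Cxcl16 at 63.1 ± 10.6, and each of these overlapped its neighbour in the order. Cxcl3 (33.2 ± 13.2 CPM per kb) lay below Cxcl16 and above Ccl28 (6.92 ± 2.36) without overlap. Cxcl10 (6.62 ± 0.141) overlapped Ccl28. Ccl20 (3.48 ± 2.41) and Cxcl12 (0.176 ± 0.0893) were the lowest, each apart from the neighbour above. In mutants the means ran from 77.0 (Cxcl1), 69.5 (Cxcl17), 56.4 (Cxcl2), 49.9 (Cxcl16) and 23.7 CPM per kb (Cxcl5) down to 8.59 (Ccl28), 5.44 (Cxcl10), 2.73 (Cxcl3), 0.264 (Ccl20) and 0.225 (Cxcl12), and every pair of neighbours in this order overlapped over the 4 mice.

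**Figure D1:**
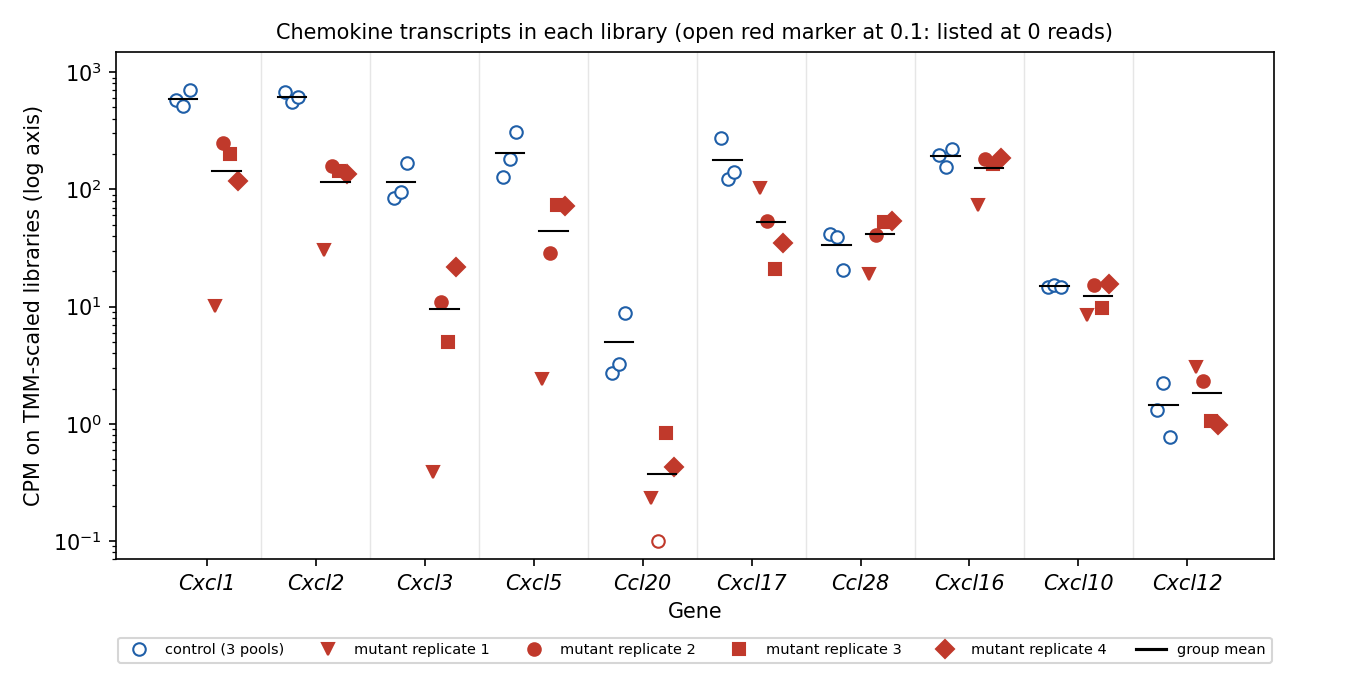
Level of each chemokine transcript in each of the 7 libraries, in CPM on TMM-scaled library sizes on a log axis, with open blue circles for the 3 control pools, red symbols for the 4 mutant mice and black lines for the group means. All mutants lie below all controls for Cxcl1, Cxcl2, Cxcl3, Cxcl5, Ccl20 and Cxcl17, and the groups overlap for Ccl28, Cxcl16, Cxcl10 and Cxcl12.

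The 4 neutrophil-attracting ELR chemokines were each lower in every mutant library than in every control library, a pattern of 16.1% of all tested genes. The control mean exceeded the mutant mean 4.12-fold for Cxcl1, 5.26-fold for Cxcl2, 12.1-fold for Cxcl3 and 4.66-fold for Cxcl5. Cxcl2 was the only one of the 4 past the threshold, an adjusted p of 0.05 in edgeR, with all 7 libraries in the fit. Without mutant replicate 1, the library with the lowest value of each of these genes, all 4 passed it. In that fit 14.0% of all tested genes were called lower, against 6.18% with all 7 libraries.

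Cxcl2 (ENSMUSG00000058427.10, chr5:90903871-90905938 on GRCm38, plus strand) was measured at 30.2, 157, 145 and 134 CPM in mutant replicates 1 to 4 and at 678, 552 and 611 CPM in control replicates 1 to 3. Mutant replicate 1 was 4.44-fold below the lowest of the other mutants, which lay close together, and the groups were far apart. The means were 117 ± 58.4 CPM (SD, n = 4) against 613 ± 62.9 CPM (SD, n = 3), and the log2 fold change was -2.40 ± 0.50 (SE, edgeR adjusted p = 0.0281). Without mutant replicate 1 it was -2.03 ± 0.16 (adjusted p = 0.0015). The call did not hold when mutant replicate 3 or 4 (adjusted p = 0.0639 and 0.0603) or control replicate 1, 2 or 3 (0.116, 0.0955 and 0.106) was left out. Of the 50-base words in the exons of Cxcl2, 5.84% also occur in Cxcl3, so some reads of the 2 genes can map to both.

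Cxcl1 (ENSMUSG00000029380.11, chr5:90891241-90893115, plus strand), the transcript at the highest level per length in both groups, was measured at 10.1, 248, 202 and 117 CPM in the mutants and 575, 513 and 698 CPM in the controls. In proportion to their level the mutants, single mice, spread far more widely than the controls, which are pools. Replicate 1 was 11.6-fold below the lowest of the other 3. The means were 144 ± 105 CPM against 595 ± 93.7 CPM. The log2 fold change of -2.04 ± 0.82 did not pass (edgeR adjusted p = 0.140). Without mutant replicate 1 it was -1.61 ± 0.28 and passed (adjusted p = 0.00939). Cxcl1 passed in only 1 of 15 alternative fits, with an edgeR adjusted p up to 0.305 when other single libraries were left out.

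Cxcl3 (ENSMUSG00000029379.10, chr5:90786103-90789600, plus strand) was measured at 0.390, 10.9, 4.96 and 21.9 CPM in the mutants and 84.7, 94.2 and 169 CPM in the controls. The reads behind these values were 5, 143, 71 and 360 in mutants against 1609, 1784 and 3729 in controls. Replicate 1 held only 5 reads and lay 12.7-fold below the lowest of the other mutants. The log2 fold change was -3.60 ± 0.98, just outside the threshold (edgeR adjusted p = 0.0549). It was -3.14 ± 0.57 without mutant replicate 1 (adjusted p = 0.0102). Cxcl3 passed in 4 of 15 alternative fits, with an edgeR adjusted p up to 0.177 when other single libraries were left out.

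Cxcl5 (ENSMUSG00000029371.7, chr5:90759360-90761624, plus strand) was measured at 2.42, 28.9, 73.3 and 72.4 CPM in the mutants and 127, 179.8 and 310.5 CPM in the controls. The controls spread about as widely around their mean as mutant replicates 2 to 4 did, and the groups did not overlap. The log2 fold change was -2.22 ± 0.91 (edgeR adjusted p = 0.146), and leaving out mutant replicate 1 gave -1.78 ± 0.45 (adjusted p = 0.0271). Cxcl5 passed in only 1 of 15 alternative fits, with an edgeR adjusted p up to 0.36 when other single libraries were left out.

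Summed, the 4 ELR transcripts reached 43.1, 446, 425 and 346 CPM in the mutants and 1465, 1339 and 1788 CPM in the controls, and the other 6 transcripts 206, 293, 249.7 and 290.1 CPM against 531, 338 and 405 CPM. The ELR share of the 10-gene sum was 17.3%, 60.4%, 63.0% and 54.4% in the mutants and 73.4%, 79.8% and 81.5% in the controls. The ELR sum therefore differed more between groups than the sum of the other 6, by 4.86-fold against 1.64-fold in the ratio of means. The proportion of Cxcl1 to Cxcl2 was 0.333, 1.58, 1.40 and 0.875 in the mutants and 0.849, 0.931 and 1.14 in the controls. The mutants lay on both sides of the controls in this ratio, so the 2 neighbouring genes did not keep a fixed proportion from mouse to mouse.

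The summed level of 10 epithelial markers (Epcam, Cdh1, Krt8, Krt18, Krt19, Krt7, Cldn3, Cldn4, Cldn7 and Muc1) was itself lower in the mutants, at 11958, 10877, 8899 and 9943 CPM, than in the controls, which had 19501, 17569 and 22031 CPM. The ratio of the means was 1.89-fold. Per 1000 CPM of these markers the ELR transcripts came to 3.60, 41.0, 47.7 and 34.8 CPM in the mutants and 75.1, 76.2 and 81.2 CPM in the controls. On this scale all mutants stayed below all controls and the ratio of means was 2.44-fold in place of 4.86-fold. Cxcl2 alone came to 2.53, 14.5, 16.3 and 13.5 CPM per 1000 in the mutants and 34.7, 31.4 and 27.7 in the controls. Cxcl16 on the same scale was at 6.12, 16.6, 18.5 and 18.6 CPM per 1000 in the mutants and 10.1, 8.88 and 9.96 in the controls, above the controls in every mutant but replicate 1. In bulk libraries fewer cells of a type and less RNA per cell cannot be told apart.

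Of the 3 chemokines best known from mucosal surfaces, Ccl20 fell in the mutants, Cxcl17 was lower in each mutant than in each control without passing the threshold, and Ccl28 overlapped between groups. Ccl20 (ENSMUSG00000026166.14, chr1:83116766-83119167, plus strand) was measured at 0.234, 0, 0.839 and 0.426 CPM in the mutants and 2.74, 3.22 and 8.89 CPM in the controls. These values rest on 3, 0, 12 and 7 reads against 52, 61 and 196 reads, so mutant replicates 1 and 2 were at or under the floor. The log2 fold change was -3.68 ± 0.91 (edgeR adjusted p = 0.0422). It stayed past the threshold at -3.47 ± 0.96 when mutant replicate 1 was left out (adjusted p = 0.0343). Ccl20 passed the filter on low counts through the controls, where it is high, with 1 mutant above it. Its being tested was therefore not independent of the difference between groups. The call did not hold when mutant replicate 3 or 4 (adjusted p = 0.0573 and 0.0888) or control replicate 1, 2 or 3 (0.119, 0.115 and 0.168) was left out.

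Cxcl17 (ENSMUSG00000060188.6, chr7:25400053-25412886, minus strand) was measured at 102, 53.7, 21.0 and 34.6 CPM in the mutants and 274, 122 and 141 CPM in the controls. Unlike in the ELR genes, replicate 1 was the highest of the mutants. The log2 fold change was -1.76 ± 0.54 (edgeR adjusted p = 0.0770), and leaving out mutant replicate 1 gave -2.25 ± 0.44 (adjusted p = 0.0122). Cxcl17 passed in 2 of 15 alternative fits, with an edgeR adjusted p up to 0.268 when other single libraries were left out. Ccl28 (ENSMUSG00000074715.3, chr13:119623819-119654359, plus strand) was measured at 19.0, 41.1, 52.5 and 53.7 CPM in the mutants and 41.3, 38.9 and 20.4 CPM in the controls, with a log2 fold change of 0.31 ± 0.40 (adjusted p = 0.638). All 3 controls lay within the range of the mutants.

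Cxcl16, Cxcl10 and Cxcl12 did not pass the threshold in either fit. Cxcl16 (ENSMUSG00000018920.11, chr11:70453983-70459984, minus strand) was measured at 73.2, 180.1, 165 and 185 CPM in the mutants and 197, 156 and 219 CPM in the controls. Apart from mutant replicate 1 the values of both groups interleaved, and the log2 fold change went from -0.34 ± 0.33 (edgeR adjusted p = 0.519) to -0.06 ± 0.17 (adjusted p = 0.795) without that library. Cxcl10 (ENSMUSG00000034855.13, chr5:92346638-92348889, minus strand) was measured at 8.43, 15.3, 9.79 and 15.5 CPM in the mutants and 14.8, 15.3 and 14.7 CPM in the controls. Mutant replicates 2 and 4 were at the control level and replicates 1 and 3 below it, with a log2 fold change of -0.28 ± 0.28 (adjusted p = 0.530). Cxcl12 (ENSMUSG00000061353.11, chr6:117168535-117181367, plus strand) was the least abundant per length, at 3.04, 2.30, 1.05 and 0.973 CPM in the mutants and 1.32, 2.22 and 0.771 CPM in the controls, from 15 to 42 reads a library. Its log2 fold change was 0.35 ± 0.57 (adjusted p = 0.711).

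**Figure D2:**
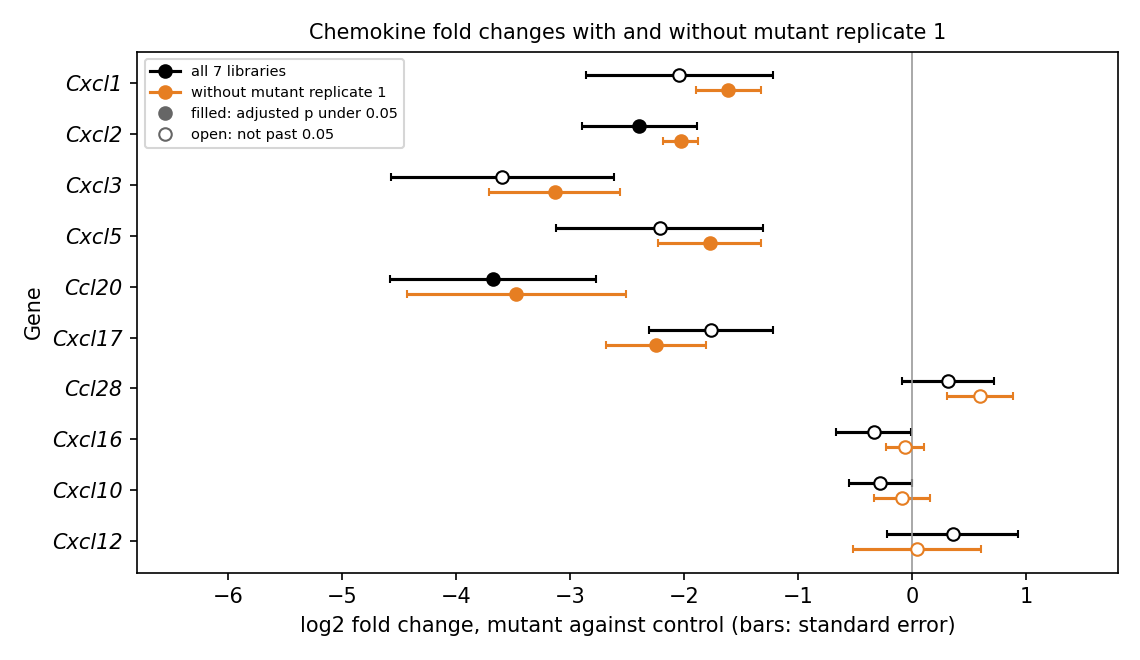
Log2 fold change of each chemokine gene, mutant against control, with its standard error, from all 7 libraries (black) and without mutant replicate 1 (orange), filled where the edgeR adjusted p was under 0.05. With all libraries only Cxcl2 (-2.40) and Ccl20 (-3.68) are filled, and without mutant replicate 1 so are Cxcl1, Cxcl3, Cxcl5 and Cxcl17.

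Across the 10 genes, 2 were lower in mutants and 0 higher at an adjusted p under 0.05 in edgeR with all 7 libraries, where 6.18% of all tested genes were lower and 5.37% higher. These 2 were Cxcl2 and Ccl20, of which Ccl20 passed the filter on low counts through the controls. At an unadjusted p under 0.05, 6 of the 10 were lower and 0 higher, against 14.6% lower and 16.4% higher among all tested genes. The median log2 fold change was -1.90 over the 10 genes and 0.06 over all genes tested. In 6 of the 10 every mutant lay below every control, a pattern that 16.1% of all tested genes showed (31.5% were apart in either direction). Without mutant replicate 1, edgeR called 6 of the 10 lower and 0 higher with a median of -1.70, against 14.0% lower among all genes. Without mutant replicate 2 the count was 2, and it was 0 without mutant replicate 3 or 4 or any 1 control, with 3 to 5 of the 10 at an unadjusted p under 0.05 and lower in those fits. Of all genes, 9.69% to 13.0% were lower and 10.9% to 14.5% higher at an unadjusted p under 0.05 in the same fits, shares against which the unadjusted counts given for other lists can also be read. At an adjusted p under 0.05, 0.555% to 0.737% of all genes were lower and 0.296% to 0.375% higher without any 1 control. Without mutant replicates 1, 2, 3 and 4 these shares were 14.0%, 4.12%, 2.5% and 3.75% lower and 15.5%, 2.62%, 1.71% and 2.59% higher. Calls lost or gained in single genes and other lists can be read against these values. DESeq2 called 4 of the 10 lower (Cxcl2, Cxcl3, Ccl20 and Cxcl17), where 8.38% of its genes were lower and 8.56% higher, and limma-voom 3 (Cxcl2, Cxcl3 and Ccl20), where 7.95% were lower and 5.35% higher, and neither called 1 of the 10 higher.

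The authors' deposited table of the same comparison lists all 10 genes, 5 of them lower at an adjusted p under 0.05 in its plain adjusted p column (8.34% of the genes with an adjusted p there). The log2 fold changes in the authors' deposited table were -2.38 for Cxcl2 (adjusted p = 0.000115), -3.59 for Cxcl3 (0.00018), -3.69 for Ccl20 (0.000156), -2.03 for Cxcl1 (0.0266) and -2.20 for Cxcl5 (0.0335). Cxcl17 stood at -1.75 with an adjusted p of 0.0516 in the authors' deposited table, and at 0.0444 in the second adjusted p column of that table, labelled IHW, where it was under the threshold too. Fold changes in that table and in the edgeR fit here differed by at most a few hundredths for these genes, while the adjusted p-values and with them the calls of Cxcl1, Cxcl3 and Cxcl5 differed. DESeq2 as run here also differed from the plain column, since it called Cxcl17 and did not call Cxcl1 or Cxcl5. The cause was not tested.

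Cxcl1, Cxcl2, Cxcl3 and Cxcl5 lie in a cluster of 7 CXC chemokine genes on the plus strand of chromosome 5, which spans 146.6 kb from 90759360 to 90905938 and also holds Ppbp, Pf4 and Cxcl15. Ppbp, the ELR chemokine best known from platelets, had the largest fold change of the 7 genes, with 5.70, 34.0, 26.1 and 23.1 CPM in the mutants and 539, 300.8 and 744 CPM in the controls. Its log2 fold change was -4.57 ± 0.61 (edgeR adjusted p = 0.00905), and it passed in each fit that left out 1 library (adjusted p up to 0.0494). In the authors' deposited table Ppbp stood at -4.55. Pf4, another platelet chemokine, was at 2.03, 5.97, 5.03 and 1.46 CPM in the mutants and 12.4, 7.50 and 10.7 CPM in the controls, lower in each mutant but not past the threshold (-1.49 ± 0.52, adjusted p = 0.104). Cxcl15 varied most between mice, with 29.0, 0, 1.05 and 89.2 CPM in the mutants and 4.16, 9.29 and 10.3 CPM in the controls (1.92 ± 1.69, adjusted p = 0.477).

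Neighbours of the cluster within 200 kb that are no chemokines did not move alike. Ereg, which encodes the EGF receptor ligand epiregulin, fell from 8.16, 4.54 and 7.44 CPM in controls to 0.859, 0.689, 0.210 and 1.03 CPM in mutants (-3.25 ± 0.53, edgeR adjusted p = 0.0145), and like Ccl20 it passed the filter on low counts through the controls, with 2 mutants above it. Rassf6, a gene of the Ras association domain family, was at 16.2, 17.0, 16.2 and 24.5 CPM in the mutants and 39.1, 39.2 and 52.1 CPM in the controls (-1.23 ± 0.23, adjusted p = 0.0195). Mthfd2l, a mitochondrial folate enzyme that lies between Cxcl2 and Ereg, was at 5.93, 9.65, 10.5 and 7.85 CPM in the mutants and 9.21, 8.87 and 11.3 CPM in the controls (-0.21 ± 0.27, adjusted p = 0.646). Epgn and 5830473C10Rik were too low to test. Leaving out control replicate 1, 2 or 3 raised the adjusted p of Ereg to 0.0776, 0.0576 and 0.0788 and that of Rassf6 to 0.0870, 0.0856 and 0.107, and leaving out mutant replicate 3 raised that of Rassf6 to 0.0549. Without any 1 control, the share of all tested genes called lower went from 6.18% to between 0.555% and 0.737%.

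**Figure D3:**
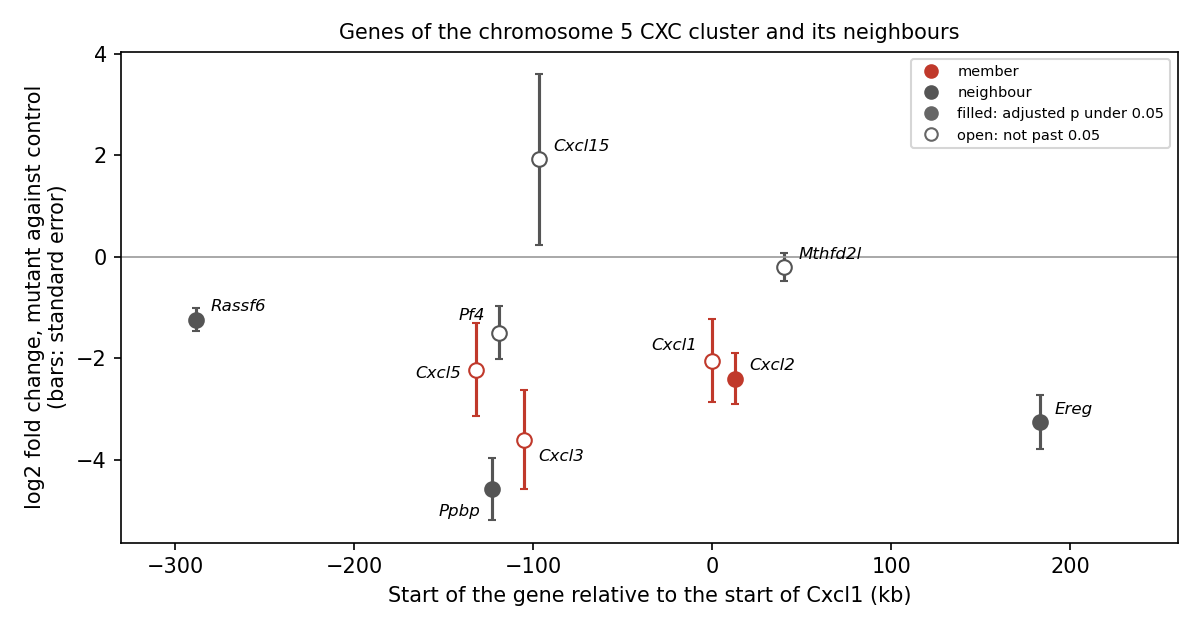
Log2 fold change, mutant against control, with its standard error for the tested genes of the chromosome 5 chemokine cluster and its neighbours, placed by the distance of each gene's start from the start of Cxcl1 in kb, with the 4 ELR genes of interest in red and filled symbols for an edgeR adjusted p under 0.05. Cxcl2, Ppbp, Rassf6 and Ereg are filled and below 0, and Mthfd2l, between Cxcl2 and Ereg, lies near 0.

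Of 28 other chemokine genes, 20 could be tested, of which 3 fell and 0 rose in edgeR (6 lower and 0 higher at an unadjusted p under 0.05), with a median log2 fold change of -0.70. Besides Ppbp these were Ccl4 and Ccl3, 2 chemokines known from macrophages and lymphocytes. Ccl4 was at 7.49, 4.21, 4.26 and 7.06 CPM in the mutants and 32.2, 23.2 and 17.1 CPM in the controls (-2.07 ± 0.33, edgeR adjusted p = 0.0144). Ccl3 was at 11.3, 7.96, 7.76 and 13.7 CPM in the mutants and 31.1, 26.6 and 22.0 CPM in the controls (-1.38 ± 0.27, adjusted p = 0.0243). DESeq2 called 5 lower and 1 higher and limma-voom 3 lower and 0 higher. Without control replicate 1, 2 or 3 only Ppbp passed, with adjusted p of 0.0808, 0.0704 and 0.0544 for Ccl4 and 0.127, 0.107 and 0.0865 for Ccl3, and Ccl3 also missed the threshold without mutant replicate 2 or 3 (0.0509 and 0.0589).

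Among 24 chemokine receptors and binding proteins, 10 could be tested, of which 2 rose, 1 fell and the median log2 fold change was 0.51. Cx3cr1, the fractalkine receptor of macrophages and other leukocytes, was at 20.6, 8.80, 10.3 and 10.9 CPM in the mutants and 2.90, 2.75 and 1.54 CPM in the controls (2.40 ± 0.42, edgeR adjusted p = 0.0183). Cxcr4, the receptor of Cxcl12, was at 27.9, 21.6, 18.7 and 22.6 CPM in the mutants and 10.5, 10.8 and 9.84 CPM in the controls (1.13 ± 0.21, adjusted p = 0.0212). Both missed the threshold without control replicate 1, 2 or 3, at 0.0808, 0.0804 and 0.0854 for Cx3cr1 and 0.106, 0.0906 and 0.102 for Cxcr4. Ackr1, an atypical receptor that binds and does not signal, was the 1 that fell, at 0.0781, 0, 0 and 0.243 CPM in the mutants and 1.84, 1.74 and 1.63 CPM in the controls, and it passed the filter on low counts through the controls alone. Cxcr2, the receptor of the ELR chemokines, was at 0.312, 0.153, 0 and 8.15 CPM in the mutants and 0.105, 0.211 and 0.544 CPM in the controls and was not tested, so mutant replicate 4 alone was above 1 CPM. Ccr6, the receptor of Ccl20, was at or under the floor of 3 reads in all 7 libraries.

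Of 11 NF-kB subunits and kinases, 3 fell and 0 rose in edgeR (5 lower and 1 higher at an unadjusted p under 0.05), with a median log2 fold change of -0.14. These were the subunit genes Relb (30.4 to 48.9 CPM in mutants, 70.4 to 89.3 in controls), Nfkb1 (140.1 to 255 against 358 to 480.3) and Rela (134 to 232 against 273 to 363). Their log2 fold changes were -1.08 ± 0.21, -1.05 ± 0.24 and -0.88 ± 0.23, and Rela was at the edge of the threshold (edgeR adjusted p = 0.0230, 0.0331 and 0.0499). The kinase genes Chuk and Ikbkb, which encode the catalytic subunits of the IKK complex, had log2 fold changes of 0.04 and 0.01. None of the 11 passed without mutant replicate 2 or 3 or without any 1 control (3 to 5 lower and 1 higher at an unadjusted p under 0.05), while without mutant replicate 1 there were 4 lower and 1 higher. DESeq2 called 4 lower and 1 higher and limma-voom 3 lower and 0 higher.

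Of 10 genes that NF-kB induces as its own brakes or that modulate it, 4 fell and 1 rose, with a median log2 fold change of -0.88. The 4 were Nfkbia, Nfkbib, Tnip1 and Cyld. Nfkbia, the inhibitor I-kappa-B alpha, was at 439, 1018, 663 and 552 CPM in the mutants and 1552, 1275 and 1780.0 CPM in the controls (-1.20 ± 0.31, edgeR adjusted p = 0.0491). Tnip1, a partner of the deubiquitinase A20, was at 62.9, 58.8, 51.0 and 97.9 CPM in the mutants and 172, 131 and 169 CPM in the controls (-1.22 ± 0.25, adjusted p = 0.0277). Nfkbie, the inhibitor I-kappa-B epsilon, rose, with 22.6, 62.8, 35.4 and 34.1 CPM in the mutants and 11.5, 10.2 and 13.5 CPM in the controls (1.72 ± 0.36, adjusted p = 0.0277). Tnfaip3, which encodes A20, was at 98.2, 1586, 708 and 520.1 CPM in the mutants and 2218, 1584 and 2737 CPM in the controls (adjusted p = 0.197), and its mutant replicate 1 was the lowest, as for the ELR chemokines. None of the 10 passed without any 1 control (4 or 5 lower and 1 higher at an unadjusted p under 0.05). Without mutant replicate 2, 3 or 4 there were 3, 2 and 3 lower and 1, 0 and 0 higher, with Nfkbia at adjusted p of 0.112 without replicate 3 and 0.107 without replicate 4.

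Of 18 receptors and adaptors that sense cytokines and bacterial products, 3 fell (Il17ra, Ticam1 and Ltbr) and 2 rose (Tlr1 and Tlr3), with a median log2 fold change of -0.11. Il17ra, the receptor subunit for interleukin-17A, ranged from 16.9 to 23.8 CPM in the mutants and from 32.7 to 40.4 CPM in the controls, and Ticam1, the adaptor of Tlr3, from 24.3 to 34.5 against 52.7 to 72.1 CPM. Tlr3, which senses double-stranded RNA, ranged from 22.2 to 37.1 CPM in the mutants and from 13.3 to 17.0 CPM in the controls. Of 12 tested inflammatory cytokines, 2 fell (Csf2 and Tnf) and 1 rose (Il18). Tnf was at 2.65, 5.74, 6.57 and 13.0 CPM in the mutants and 29.1, 27.6 and 26.2 CPM in the controls (-1.98 ± 0.47, edgeR adjusted p = 0.0391). Csf2, which encodes the growth factor GM-CSF, ranged from 0.0699 to 2.25 CPM in the mutants and from 7.18 to 16.0 CPM in the controls (-3.47 ± 0.84), with 2 mutants above the filter on low counts, which it passed through the controls. Il18, an interleukin-1 family cytokine, ranged from 2.73 to 36.7 against 1.64 to 1.95 CPM (3.28 ± 0.81). None of either list passed without any 1 control (2 to 4 lower and 2 to 4 higher in each list at an unadjusted p under 0.05). The counts without mutant replicates 1, 2, 3 and 4 were 5, 1, 1 and 2 lower and 5, 0, 0 and 0 higher for the receptors and adaptors, and 3, 0, 0 and 2 lower and 2, 0, 0 and 0 higher for the cytokines, of which 3 were lower and 3 higher at an unadjusted p under 0.05 without mutant replicate 2 or 3. Of all genes, 14.0%, 4.12%, 2.5% and 3.75% were lower and 15.5%, 2.62%, 1.71% and 2.59% higher at an adjusted p under 0.05 in these fits.

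Of 11 tested genes that respond to interleukin-17, 3 fell (Cebpb, Cebpd and Saa3) and 0 rose in edgeR (7 lower and 0 higher at an unadjusted p under 0.05), with a median log2 fold change of -1.17. Cebpb, a transcription factor that acts with NF-kB at many inflammatory genes, was at 39.3, 54.7, 40.6 and 50.2 CPM in the mutants and 363, 248 and 360.0 CPM in the controls. Its log2 fold change of -2.81 ± 0.22 (edgeR adjusted p = 0.0018) passed in each fit that left out 1 library (adjusted p up to 0.0180). Cebpd was at 60.6, 66.5, 45.9 and 112 CPM in the mutants and 248, 262 and 337 CPM in the controls (-1.99 ± 0.31, adjusted p = 0.0135), and missed the threshold without control replicate 1, 2 or 3 (0.0673, 0.0667 and 0.0788). Lcn2, an iron-binding antibacterial protein, was at 53.6, 10236, 2909 and 549.9 CPM in the mutants and 3430, 2462 and 3999 CPM in the controls, so the mutants lay on both sides of the controls. Saa3, an acute-phase protein, ranged from 0.122 to 0.280 CPM in the mutants and from 0.895 to 1.68 CPM in the controls and passed the filter on low counts through the controls alone. Without any 1 control only Cebpb of this list passed. DESeq2 called 5 of the list lower and limma-voom 3, and neither called 1 higher.

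Of 15 AP-1 and other immediate early genes, 3 fell (Ier3, Fosl1 and Junb) and 1 rose (Fosb), with a median log2 fold change of -0.44. Ier3, an early gene induced by stress and NF-kB, was at 587, 1455, 760.1 and 418 CPM in the mutants and 2621, 2437 and 2719 CPM in the controls (-1.69 ± 0.41, edgeR adjusted p = 0.0421). Fosb was at 1465, 3323, 2546 and 2084 CPM in the mutants and 1032, 1124 and 943 CPM in the controls (1.19 ± 0.31, adjusted p = 0.0493). Without mutant replicate 1 the counts were 7 lower and 1 higher and without mutant replicate 2 they were 5 and 0. Without mutant replicate 4 they were 1 and 0, and without mutant replicate 3 or any 1 control none passed (6 lower and 1 or 2 higher at an unadjusted p under 0.05).

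Among genes of interferon signalling, which induces Cxcl10, Stat2 rose and Socs1, a feedback inhibitor, fell. Stat2, a subunit of the transcription factor that type I interferons activate, was at 79.1, 57.0, 37.2 and 44.5 CPM in the mutants and 17.6, 27.6 and 21.0 CPM in the controls (1.30 ± 0.31, edgeR adjusted p = 0.0391). Socs1 was at 1.25, 1.15, 1.12 and 1.52 CPM in the mutants and 4.84, 6.23 and 5.58 CPM in the controls (-2.13 ± 0.30, adjusted p = 0.00988). For both genes the groups did not overlap. Stat2 missed the threshold without mutant replicate 2 or 4 (0.0688 and 0.0580) and without control replicate 1, 2 or 3 (0.159, 0.0955 and 0.148), and Socs1 without control replicate 1, 2 or 3 (0.0612, 0.0674 and 0.0622). Cxcl10 itself did not pass (adjusted p = 0.530).

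Chemokine transcripts are short-lived and are destroyed through Zfp36 and related RNA-binding proteins. Of 9 regulators of mRNA decay none passed in edgeR or limma-voom with all 7 libraries (2 lower and 2 higher at an unadjusted p under 0.05 in each), and DESeq2 called 0 lower and 2 higher. Zfp36, the most abundant, was at 1148, 1763, 950.0 and 1247 CPM in the mutants and 1754, 1333 and 1714 CPM in the controls, so the groups overlapped. Of 9 tested genes that cleave or present chemokines, Ext1, a heparan sulfate polymerase, was at 24.9, 14.9, 23.2 and 27.4 CPM in the mutants and 63.9, 60.8 and 52.8 CPM in the controls and fell (-1.39 ± 0.23, edgeR adjusted p = 0.0161). Ext1 missed the threshold without control replicate 1, 2 or 3 (0.0890, 0.0832 and 0.0725). Adam10, the sheddase of Cxcl16, ranged from 227 to 336 CPM in the mutants and from 198 to 239 CPM in the controls (adjusted p = 0.223).

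**Figure D4:**
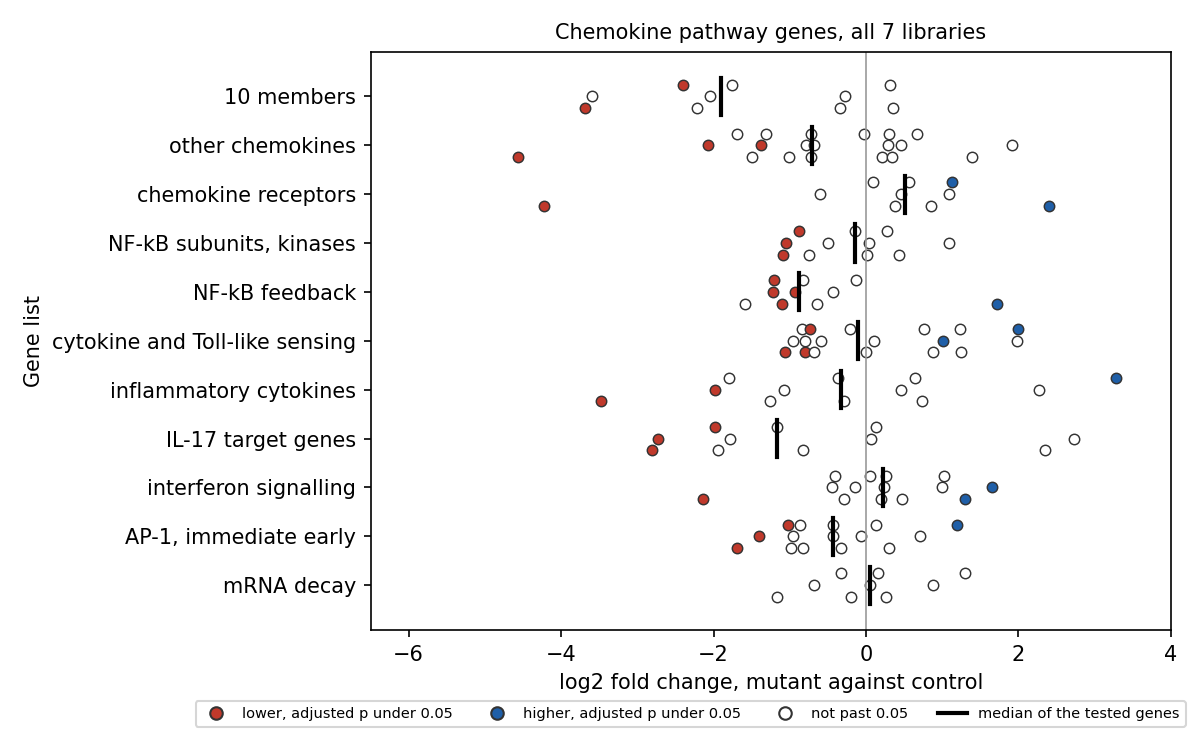
Log2 fold change, mutant against control, of each tested gene in the 10 genes of interest and in 10 lists of related genes, from all 7 libraries, with red for lower and blue for higher at an edgeR adjusted p under 0.05, open symbols for genes not past it and a bar at each list's median. The medians run from -1.90 for the 10 chemokines and -1.17 for the interleukin-17 genes to 0.51 for the receptors.

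Transcripts of other cell types were present in both groups. The summed markers of macrophages, which also make Cxcl2, Ccl3 and Ccl4, came to 756, 706, 719 and 360 CPM in the mutants and 763, 535 and 541 CPM in the controls, so the groups overlapped. None of the 11 macrophage markers passed in edgeR or limma-voom (0 lower and 1 higher at an unadjusted p under 0.05), and DESeq2 called 1 higher. The 10 neutrophil markers summed to between 6.95 and 38.7 CPM in the mutants and between 10.03 and 11.8 CPM in the controls, with Elane and Camp at or under the floor in every library. The 11 lymphocyte markers summed to between 1.84 and 4.82 CPM in the mutants and between 11.4 and 21.4 CPM in the controls without overlap, with Cd3d, Cd8a and Ms4a1 at or under the floor. Cd3e, a T cell receptor component, was at 0, 0.306, 2.52 and 0.182 CPM in the mutants and 18.4, 11.6 and 7.08 CPM in the controls (edgeR adjusted p = 0.0617). The separation of the lymphocyte sums rested on Cd3e, since the other 10 markers summed to 3.98, 1.53, 2.31 and 2.80 CPM in the mutants and 3.001, 3.17 and 4.355 CPM in the controls, which overlap. Stromal markers summed to between 424 and 1081 CPM in the mutants and between 871 and 1129 CPM in the controls, with Dcn lower (-1.77 ± 0.24, adjusted p = 0.00889). The median log2 fold change of the 10 stromal markers was -1.15, and in 5 of them every mutant lay below every control, a pattern of 16.1% of all tested genes. The same pattern held for 5 of the 10 epithelial, 4 of the 9 tested endothelial and 0 of the 11 macrophage markers. Without Fn1, which was the largest part of the sum in each mutant, the stromal sum ranged from 206 to 568 CPM in the mutants and from 644 to 824 CPM in the controls, without overlap. Cd3e and Fn1 were left out of these sums after their values were seen. Endothelial markers summed to between 6.43 and 28.7 CPM in the mutants and 26.2 and 34.6 CPM in the controls, and smooth muscle markers to between 7.73 and 83.1 against 67.5 and 108 CPM, both overlapping. The smooth muscle sums were 83.1, 7.73, 13.7 and 30.7 CPM in mutant replicates 1 to 4, so their overlap rested on replicate 1. With all 7 libraries 0 of 6 tested smooth muscle markers passed in edgeR. Without mutant replicate 1, 4 of 5 were lower, against 14.0% of all genes. The part of lymphocyte, stromal, smooth muscle and epithelial marker levels in the chemokine values was not tested.

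The genes whose levels followed most closely those of Cxcl2, Cxcl1 and Cxcl5, the 3 chemokines with the highest mean CPM in controls, were ranked by Pearson's r of log2(CPM + 0.5) over the 7 libraries, among genes with a mean of at least 5 CPM. Closest to Cxcl2 were Kmt2b (a histone H3 lysine methyltransferase, r = 0.996), Pim1 (a serine/threonine kinase, 0.994) and Fgd3 (0.992). Closest to Cxcl1 were Sprr2e (a small proline-rich protein, 0.994), Ppp1r13l (0.994) and Rnf169 (0.991), and closest to Cxcl5 were Slc23a3 (0.989), Adrm1 (a proteasome receptor for ubiquitin, 0.988) and Ahctf1 (0.979). After the group means were taken out, r was 0.966 to 0.990 for these 9 pairs, where the low mutant replicate 1 is shared by all. Both sets of r come from the same 7 libraries, for genes picked as the highest of all searched. High values are therefore no sign of a link between the genes. Sprr2e, for example, was at 0.0781, 39.0, 29.8 and 16.9 CPM in the mutants and 185, 75.8 and 168 CPM in the controls. Of the 9 genes, Pim1 (log2 fold change -2.004, edgeR adjusted p = 0.0317) and Fgd3 (-2.36, adjusted p = 0.0415) passed the threshold. Both missed it without mutant replicate 3 or 4 or any 1 control (0.0694 to 0.126 for Pim1, 0.0767 to 0.146 for Fgd3), and Fgd3 also without mutant replicate 2 (0.0625).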

How the data were processed

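The authors deposited STAR gene counts (raw reads per gene) for each library and 1 table of their own DESeq2 comparison with log2 fold changes and adjusted p-values per gene. Trimming (cutadapt, Trim Galore), alignment with STAR and the mm10 build are named, without versions, per the submitters' processing notes. Here the reverse-stranded counts (94.8% to 95.6% of stranded reads) were tested in R 4.3.3 with edgeR 4.0.16: filterByExpr, TMM, quasi-likelihood F test, two-sided, Benjamini-Hochberg adjustment over 14610 genes, threshold 0.05. The test was checked on simulated counts with the same dispersion in both groups. That check does not cover mice set against pools or a mutant unlike the others. Rows that name no gene were left out (unmapped 3.90% to 6.70% of reads, multimapping 8.45% to 11.2%, no feature 10.5% to 14.7%, ambiguous 0.827% to 1.29%). DESeq2 1.42.0, limma-voom (limma 3.58.1), other scalings, no filter, unstranded counts, a replicate block and leaving out each library were alternatives. Symbols and positions are from GENCODE M21 (53274 of 53379 IDs). P-values rest on a spread taken jointly from single mutant mice and control pools. The spread between pools is not that between mice, and whether pools shared mice is not given. Named genes were, beside the 10 members, up to 3 called genes of each list with the largest change and at least 1 CPM (otherwise the most abundant), the closest-correlated genes and the neighbours of the cluster. Others named were chosen after their values were seen. The members and lists were chosen with earlier results of these data known. Some genes of the lists are not reported here.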

Additional observations from a re-analysis of the deposited data

Results flagged for a closer look

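In 5 of 64 genes examined, none of them among the 10 chemokines, 1 mutant library lay far from the other 3 by Dixon's gap test, which chance alone flags in about 1 in 20 groups. The test was run on CPM without logs, where a gap below the other values weighs less than in fold terms. Cxcl2 in mutant replicate 1, 4.44-fold below the lowest of the other mutants, was therefore not flagged on this scale. Csf3r, the receptor for the neutrophil growth factor G-CSF, reached 26.4 CPM in mutant replicate 4, against 4.44 to 5.70 CPM in the other mutants. Rassf6 reached 24.5 CPM in mutant replicate 4, against 16.2 to 17.0 CPM in the others. Cd3e reached 2.52 CPM in mutant replicate 3 and was at most 0.306 CPM in the others. 5830473C10Rik reached 0.0608 CPM in mutant replicate 4, under the floor of 3 reads, and 0 in the others. Kmt2b was lowest in mutant replicate 1, at 57.4 CPM, against 73.3 to 75.6 CPM in the others.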

How the results depend on the processing

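The 10 chemokines gave 150 values over 15 alternatives, of which 128 kept their direction and their side of the threshold, 8 gained a call, 12 lost one and 2 turned direction. The turned ones were Cxcl10 (0.081) and Cxcl16 (0.034) under total count scaling, which moved the median log2 fold change of all genes from 0.06 to 0.41. Upper-quartile scaling moved it to 0.20. Among the other named genes the direction turned under total count scaling for Zfp36 (0.018), Mthfd2l (0.15) and Lyz2 (0.31). Lyz2 also turned under upper-quartile scaling (0.11), with unstranded counts (0.018) and ran from -0.12 to 0.14 when single libraries were left out. The number of chemokines past the threshold was 2 with all 7 libraries, both lower. It was 4 with DESeq2, 0 with the replicate block and from 0 to 6 when single libraries were left out. The count of all genes past the threshold was 1687, and 2731 with total count scaling, 1057 without a filter, 3269 with DESeq2, 2 with the replicate block and from 133 to 4403 when single libraries were left out. The cause was not tested. The replicate numbers name mice in one group and pools in the other. After the group means were taken out, same-numbered libraries correlated at -0.02, -0.36 and 0.155. Libraries with unlike numbers correlated at -0.29 to 0.35, so a pairing by number does not stand out in these values. Under the replicate block, Lyz2 turned to 0.12 and the log2 fold change of Cxcl15 to -2.46, and limma-voom turned the latter to -1.09. Depth limits Ccl20 and Cxcl12, which had 0 to 39 reads in each mutant library.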

Other observations

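Of the neutrophil-related genes, S100a9, S100a8 and Mmp9, chosen after their values were seen, were highest in mutant replicate 4. S100a9, a calcium-binding protein of neutrophils, was at 0.156, 0.383, 1.61 and 31.3 CPM in the mutants and 0.632, 1.95 and 2.31 CPM in the controls. S100a8, its partner, was at 0.312, 0.230, 0.909 and 17.6 CPM in the mutants and 0.211, 1.21 and 0.726 CPM in the controls. Mmp9 was at 0.312, 0.153, 0.629 and 16.8 CPM in the mutants and 0.684, 0.686 and 0.363 CPM in the controls. Of the neutrophil markers, Csf3r (26.4 CPM), Cxcr2 (8.15 CPM), Stfa2l1 (1.46 CPM) and Elane (0.182 CPM, at the floor) were also highest there. Ly6g, Mpo, Retnlg, Mmp8, Ngp and Camp were not. Ly6g was at 0.312, 2.91, 3.36 and 0.608 CPM in the mutants and 3.11, 2.75 and 4.49 CPM in the controls. Mpo was at 0.156, 0.153, 0.280 and 0.0608 CPM, near or under the floor, against 1.53, 0.686 and 0.635 CPM. In mutant replicate 4 Cxcl1, Cxcl2, Cxcl3 and Cxcl5 were at 117, 134, 21.9 and 72.4 CPM, below every control.

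Cxcl14, a chemokine of epithelia and stroma, split the mutants in another order than the ELR genes did. It was at 139, 2.37, 4.12 and 8.03 CPM in mutant replicates 1 to 4 and 68.7, 81.4 and 40.9 CPM in the controls, so that replicate 1 was above and the other 3 below all controls. Il33, an epithelial alarm cytokine, was at 15.3, 142, 123 and 101 CPM in the mutants and 26.7, 13.0 and 19.3 CPM in the controls, with replicate 1 at the control level and the other 3 above it.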
